A study of Homo sapiens with 6 samples.

Results

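The IFIT and OAS families are groups of interferon-stimulated genes whose proteins act on foreign or misprocessed RNA. The 8 genes described here are IFIT1, IFIT2, IFIT3, IFIT5, OAS1, OAS2, OAS3 and OASL, taken by gene name from a table of 60843 genes, and all 8 passed the expression filter of a mean of at least 0.5 FPKM (fragments per kilobase of gene, scaled by library depth) over the libraries. The genes were selected on their FPKM differences between the groups in these same libraries, so those differences are given as a description and carry no test. The 6 RNA sequencing libraries come from SW872-S cells, a line of human liposarcoma. The 3 NC libraries are the negative control (genotype TP53INP2 NC) and the 3 TP53INP2_OE libraries come from cells given a plasmid that overexpresses TP53INP2 (genotype TP53INP2 OE). What the NC cells were given is not stated here, and any effect of the plasmid itself was not tested. TP53INP2 is a protein with roles in autophagosome formation and transcription, and the study asked how raising it acts in dedifferentiated liposarcoma. The labels give neither the promoter of the plasmid, nor the time after its introduction, nor whether replicates were grown as independent cultures. The p-values therefore rest on library-to-library spread, which may be technical only. The design text also speaks of different cell sources without naming them, while the labels give 1 line for all libraries, and reads of the plasmid and of the chromosomal TP53INP2 gene are summed.

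Type I and type III interferons bind receptors at the cell surface and activate the kinases JAK1 and TYK2. These phosphorylate STAT proteins, which join IRF9 and bind a short DNA element, the interferon-stimulated response element, in front of target genes. IRF3, activated by RNA and DNA sensors inside the cell, can act on several of the same genes without interferon. IFIT proteins are built of tetratricopeptide repeats and bind RNA: IFIT1 binds capped RNA that lacks ribose methylation next to the cap, IFIT5 binds RNA with a triphosphate end, IFIT2 favours AU-rich RNA, and IFIT3 joins IFIT1 and IFIT2 in complexes and strengthens cap binding by IFIT1. OAS1, OAS2 and OAS3 are enzymes that sense double-stranded RNA and make short oligoadenylates, which serve as a messenger inside the cell. OASL has lost that enzymatic activity and carries ubiquitin-like domains that act on the RNA sensor RIG-I.

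The response element was looked for in the promoters. RefSeq promoter windows on GRCh38.p14, from 250 bases before a transcript start to 50 after it, were at hand for 5 of the 8 genes, as 6 windows, since IFIT3 has 2 starts. The pattern searched on both strands was the core of the element, GAAA and GAAA with any 2 bases between them. The stretches below show the plus strand, which is the strand of these genes, 5′ to 3′. The capitals mark each match, which reads TTTC, 2 bases, TTTC where the element lies on the minus strand.
IFIT1, chr10:89392499-89392537: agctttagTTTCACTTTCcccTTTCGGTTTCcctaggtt
IFIT3, first start, chr10:89327833-89327892: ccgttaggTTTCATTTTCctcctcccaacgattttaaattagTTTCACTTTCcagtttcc
IFIT3, second start, chr10:89332427-89332452: agattctgTTTCAGTTTCccctcaag
IFIT3, second start, chr10:89332471-89332499: ccatcagTTTCACTTTCCTTTCccctttc
IFIT5, chr10:89414515-89414540: ctattaagTTTCGGTTTCtgaagctt
IFIT5, chr10:89414541-89414566: acgtttagTTTCGATTTCttaagttt
OAS3, chr12:112938319-112938347: ctagaaaGAAACGAAACTGAAAgcaggga
OAS3, chr12:112938454-112938473: ccgggcggGAAAACGAAAcc
OAS1, chr12:112906937-112906961: cttctgagGAAACGAAAccaacagc

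IFIT1 had 2 matches between positions -116 and -94 from its RefSeq start, and IFIT3 had 2 in each of its windows. IFIT5 had 3 matches, of which 2 are shown and the third lies across the start. OAS3 had 2 matches, at -143 to -134 and at -12 to -3. The OAS1 window held no match to the core, and its capitals mark GAAANGAAA, a form with 1 base fewer in the middle, which was searched only after the sequences had been seen. That form also overlaps matches in OAS3 and at the second start of IFIT3, where the capitals cover both. Some stretches overlap an exon in GENCODE 29. These are both of IFIT5, that of OAS1, the second of OAS3 and the second at the second IFIT3 start. The core stood in 4 of the 5 genes with a window, in 18 of 25 other interferon-stimulated genes with a window (72.0%) and in 4.38% of all 27305 genes with one. GAAANGAAA stood in 3 of the 5 genes, in 11 of the 25 other stimulated genes and in 3.87% of all. TTCNNNGAA on both strands, the core of the gamma-activated site, stood in 1 of the 5 genes, OAS1, in 10 of the 25 and in 9.38% of all. TATAAA on the gene's strand stood in none of the 5, in 2 of the 25 and in 8.99% of all. A match is a description of letters and not a bound site, and binding was not analysed here.

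Depth was similar between libraries, with 16038062 to 17607612 reads assigned to genes as recovered from the FPKM values. Every pair of libraries differed by more than sampling noise, with a chi-square over its degrees of freedom of 2.48 to 4.6 inside a group and 12.2 to 29.2 across groups. TP53INP2 itself was at 10.6, 9.45 and 9.67 FPKM in the NC libraries and at 18.9, 23.4 and 27.1 FPKM in the TP53INP2_OE libraries, which limma gave as a log2 difference of 1.13 ± 0.12 (SE; adjusted p = 0.00282). By exact permutation (two-sided) the same values gave p = 0.1, the smallest that 3 against 3 libraries allow. Of 6 mesenchymal markers 4 were above 0.5 FPKM (VIM, COL1A1, FN1 and SPARC), and so were all 3 of MDM2, CDK4 and HMGA2, which are often amplified in liposarcoma and summed to 66.5 to 68.3 FPKM in NC and 59.2 to 64.5 in TP53INP2_OE. THY1 and COL1A2, also mesenchymal markers, were below 0.5 FPKM. The adipocyte markers ADIPOQ, LEP and FABP4 were listed at 0 in every library, and the 5 adipocyte markers summed to at most 0.0323 FPKM in NC and 0.146 in TP53INP2_OE. Of 8 leukocyte markers 1 (IL3RA) was above 0.5 FPKM, with sums of 1.29 to 1.69 FPKM in NC and 1.26 to 1.57 in TP53INP2_OE. All 4 endothelial markers were above 0.5 FPKM, with sums of 37.0 to 41.4 FPKM in NC and 34.1 to 35.7 in TP53INP2_OE, and 2 of 4 epithelial markers (KRT8 and KRT18), with sums of 81.2 to 83.2 and 63.6 to 75.5 FPKM. The endothelial, epithelial and MDM2, CDK4 and HMGA2 sums were lower in every TP53INP2_OE library and the adipocyte sum was higher. Of all genes that passed the expression filter, 25.6% were lower and 25.2% higher in every TP53INP2_OE library than in every NC library. The adipocyte sum rested on PLIN1, with 0 to 2 reads per NC library and 4 to 8 per TP53INP2_OE library, and on 1 read of CIDEC. Not all members followed their sum. CDK4 fell from a mean of 53.9 to 44.3 FPKM, while MDM2 rose from 3.26 to 3.94 and HMGA2 from 10.2 to 13.4 FPKM. CDH5 carried the endothelial sum and fell from 32.3 to 27.8 FPKM, while VWF was higher in every TP53INP2_OE library (0.699 and 0.813 FPKM on average) and PECAM1 and KDR overlapped between the groups, and these 3 did not pass. KRT8 and KRT18 both fell. A second fit, described below, took out the trends with GC content and length. CDK4 (log2 fold change -0.17), MDM2 (0.04), HMGA2 (0.14), CDH5 (-0.09), KRT8 (-0.10) and KRT18 (-0.12) did not pass there. Of the mesenchymal markers, COL1A1 fell from a mean of 121 to 89.0 FPKM and FN1 rose from 565 to 629 FPKM. COL1A1 still passed in the second fit (-0.20), and FN1 (-0.01) did not. VIM and SPARC passed in neither fit. The part of these markers in the results was not tested.

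Both families were already expressed in the control cells. In NC the order of the levels per gene length was IFIT3, OASL, IFIT2, OAS3, IFIT1, OAS2, IFIT5 and OAS1, and no gene's NC libraries overlapped those of its neighbour in that order. Among 11278 tested protein-coding genes, 3.33% had a higher NC mean than IFIT3, 5.89% a higher one than OASL and 68.2% a higher one than OAS1. In TP53INP2_OE the order was the same except that IFIT1 stood above OAS3, again with no overlap between neighbours. The plot of FPKM by library shows both the order and the shift.

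**Figure D1:**
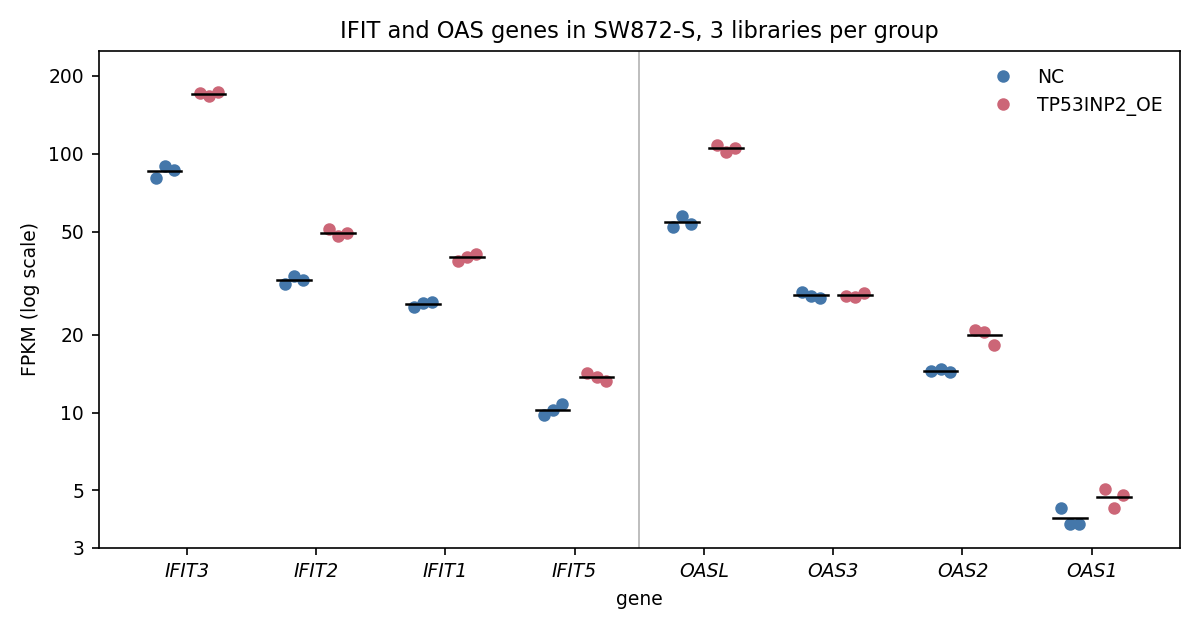
FPKM of each gene in each library on a log axis, with NC in blue, TP53INP2_OE in red and a black bar at the mean of the 3 libraries of a group. The groups are apart for the 4 IFIT genes, OASL and OAS2, touch for OAS1 and overlap for OAS3.

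By the fit across all 14791 tested genes (limma on log2(FPKM + 1), threshold of 0.05 on the adjusted p), 6 of the 8 genes rose and none fell, where 16.4% of all tested genes rose and 18.6% fell (35.0% in either direction). For 7 of the 8 every TP53INP2_OE library lay above every NC library, which held for 25.2% of all tested genes. The median log2 fold change was 0.59 over the 4 IFIT genes and 0.33 over the 4 OAS genes, beside a median of 0.0032 over all tested genes. Since these differences led to the choice of the genes, nothing is read from the counts. A change in RNA per cell and a change in the share of cells that express a gene cannot be told apart in these bulk libraries.

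IFIT3 (chromosome 10, 89327997 to 89340971, plus strand, GRCh38 as for all positions here) was the highest of the 8. It stood at 80.3, 89.7 and 86.1 FPKM in the NC libraries and at 172, 168 and 173 FPKM in the TP53INP2_OE libraries. The groups were far apart, the lowest TP53INP2_OE library being 1.87 times the highest NC library. The means were 85.4 ± 4.78 and 171 ± 2.74 FPKM (SD, n = 3 each), a ratio of 2.0 and a log2 fold change of 0.99 ± 0.05 (SE). Of all tested genes 56 had a larger log2 fold change.

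IFIT2 (chromosome 10, 89283694 to 89309271, plus strand) was at 31.3, 33.5 and 32.4 FPKM in NC and at 51.1, 47.9 and 49.5 FPKM in TP53INP2_OE. IFIT1 (chromosome 10, 89392546 to 89406487, plus strand) was at 25.6, 26.6 and 26.7 FPKM in NC and at 38.6, 39.8 and 40.9 FPKM in TP53INP2_OE. In both genes all TP53INP2_OE libraries were high and all NC libraries low, with ratios of the means of 1.53 and 1.51. Their log2 fold changes, 0.60 for IFIT2 and 0.58 for IFIT1 with a standard error of 0.04 each, differed by less than either error. IFIT2 shares 356 exon bases with the RNA gene AL353751.1 on the same strand and 65 with LIPA on the opposite strand in GENCODE 29. LIPA, whose transcribed region on the minus strand runs across IFIT2, IFIT3 and IFIT1, did not pass, with levels of 26.7 ± 0.70 and 27.5 ± 0.45 FPKM (log2 fold change 0.04).

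IFIT5 (chromosome 10, 89414568 to 89420997, plus strand) was the lowest of its family. The NC libraries were at 9.81, 10.2 and 10.8 FPKM and the TP53INP2_OE libraries at 14.3, 13.7 and 13.3 FPKM. The groups were apart, but by less than for the other IFIT genes, with the lowest TP53INP2_OE library 1.23 times the highest NC library. The log2 fold change was 0.39 ± 0.05 (SE). IFIT1B, which lies between IFIT3 and IFIT1, had 1 read in each of 2 NC libraries and none in the other 4 libraries, so no fold is given.

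The 4 IFIT genes summed to 147, 160 and 156 FPKM in the NC libraries and to 276, 269 and 276 FPKM in the TP53INP2_OE libraries, a ratio of the means of 1.77. The shares of the genes in that sum come from the same FPKM values and add up to the whole, so they are no separate result. IFIT3 accounted for 55.3 ± 0.73% of it in NC and 62.4 ± 0.07% in TP53INP2_OE (n = 3 libraries a group, ± SD). The shares of IFIT2 went from 21.0 ± 0.28% to 18.1 ± 0.37%, of IFIT1 from 17.1 ± 0.40% to 14.5 ± 0.49% and of IFIT5 from 6.65 ± 0.27% to 5.02 ± 0.19%. None of these 4 shares overlapped between the groups. The shares of IFIT2, IFIT1 and IFIT5 went down because IFIT3 rose most, although these genes rose as well.

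OASL (chromosome 12, 121019111 to 121039242, minus strand) lies apart from the other OAS genes. It was at 52.0, 57.5 and 53.3 FPKM in NC and at 108, 101 and 105 FPKM in TP53INP2_OE. The lowest TP53INP2_OE library was 1.76 times the highest NC library. The means were 54.3 ± 2.89 and 105 ± 3.34 FPKM, a ratio of 1.93 and a log2 fold change of 0.94 ± 0.05 (SE), so that OASL and IFIT3 had the largest differences of the 8.

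The genes of the 3 active enzymes stand side by side in the order OAS1, OAS3, OAS2 on the plus strand of chromosome 12, and they differed from each other. OAS2 (112978395 to 113011723) was at 14.4, 14.7 and 14.4 FPKM in NC and at 20.9, 20.4 and 18.3 FPKM in TP53INP2_OE. Its TP53INP2_OE libraries were all above NC, with replicate 3 below the other 2, and its log2 fold change was 0.43 ± 0.05 (SE). OAS3 (112938444 to 112973251), the middle gene, was at 29.2, 28.1 and 27.7 FPKM in NC and at 28.2, 28.0 and 28.98 FPKM in TP53INP2_OE. The groups overlapped throughout, and the log2 fold change was 0.0034 ± 0.04 (SE), from 3731 to 4059 reads per library. It turned to values between -0.012 and -0.0023 when NC replicate 2, NC replicate 3 or TP53INP2_OE replicate 3 was left out.

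OAS1 (112906783 to 112933222), the lowest of the 8, was at 4.28, 3.70 and 3.70 FPKM in NC and at 5.06, 4.29 and 4.82 FPKM in TP53INP2_OE. The groups touched: the lowest TP53INP2_OE library exceeded the highest NC library by 0.0058 FPKM, less than the 0.012 FPKM that 1 read was worth there. The log2 fold change was 0.22 ± 0.08 (SE), and it did not pass. It passed under some other settings, among them a fit of protein-coding genes alone (0.22), quantile normalization (0.24), voom on the recovered reads (0.28) and leaving out TP53INP2_OE replicate 2 (0.28). OAS1 rested on 324 to 405 reads per library, and it shares 92 exon bases with the RNA gene AC004551.1 on the opposite strand.

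The 4 OAS genes summed to 99.9, 104 and 99.1 FPKM in NC and to 162, 154 and 158 FPKM in TP53INP2_OE, a ratio of the means of 1.56. OASL, which makes no oligoadenylates, accounted for 53.7 ± 1.63% of the sum in NC and 66.4 ± 0.60% in TP53INP2_OE. The share of OAS3 went from 28.1 ± 1.12% to 18.0 ± 0.50%, while its own mean was 28.3 FPKM in NC and 28.4 in TP53INP2_OE. As for IFIT, these shares restate the differences between the genes. The shares of OAS2 (14.4 ± 0.19% and 12.6 ± 0.88%) and OAS1 (3.86 ± 0.38% and 2.99 ± 0.18%) were also lower in every TP53INP2_OE library.

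**Figure D2:**
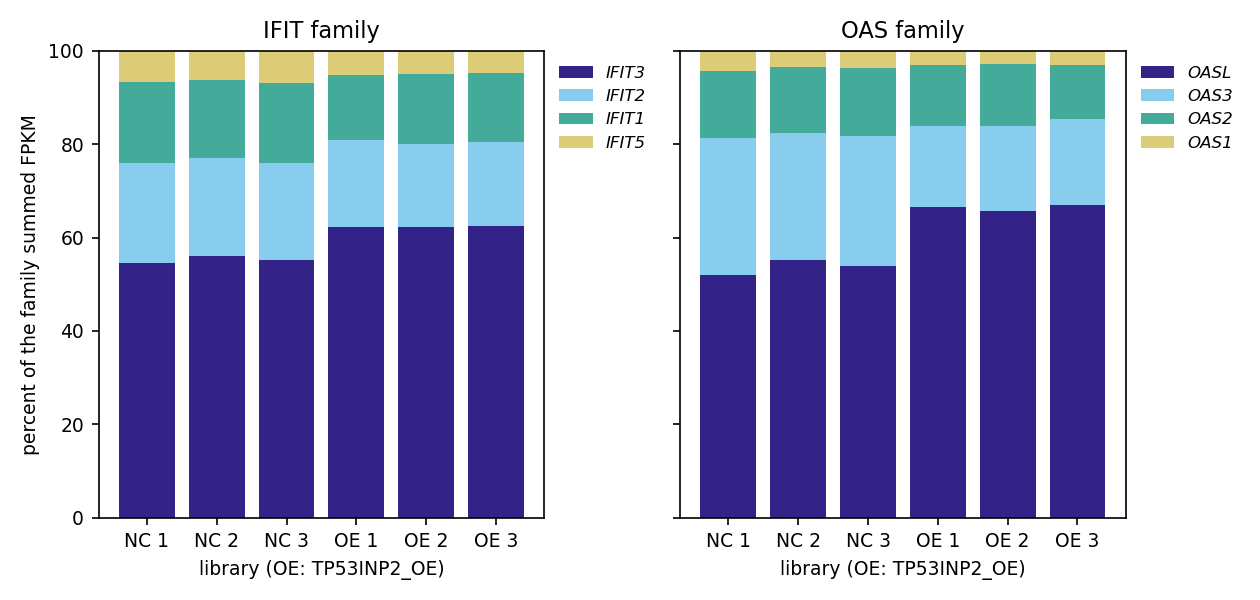
Share of each gene in the summed FPKM of its family, in percent, with 1 stacked bar per library for IFIT (left) and OAS (right). IFIT3 and OASL, the dark blue parts, take 62.4% and 66.4% on average in TP53INP2_OE against 55.3% and 53.7% in NC.

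Log2 fold changes varied with transcript GC content, so each gene was also set beside others of similar GC. Tested protein-coding genes of known GC content were divided into 10 groups of 1127. IFIT5, with 37.4% GC, falls in the group of lowest GC content, whose median log2 fold change was 0.24 and where 61.0% of genes rose. IFIT1 (42.2%) and IFIT2 (42.8%) fall in a group with a median of 0.15, and IFIT3 (44.3%) in one with a median of 0.10. OAS2 (47.0%) and OAS1 (48.2%) fall in a group with a median of 0.03, OASL (51.4%) in one with a median of -0.04 and OAS3 (54.3%) in one with a median of -0.12. From the group of IFIT1 and IFIT2 to that of OAS3, in the order given, 37.8%, 25.9%, 12.3%, 6.21% and 2.57% of genes rose. The log2 fold change exceeded the median of the gene's own GC group by 0.97 for OASL, 0.90 for IFIT3, 0.45 for IFIT2, 0.43 for IFIT1, 0.39 for OAS2, 0.19 for OAS1, 0.15 for IFIT5 and 0.12 for OAS3.

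**Figure D3:**
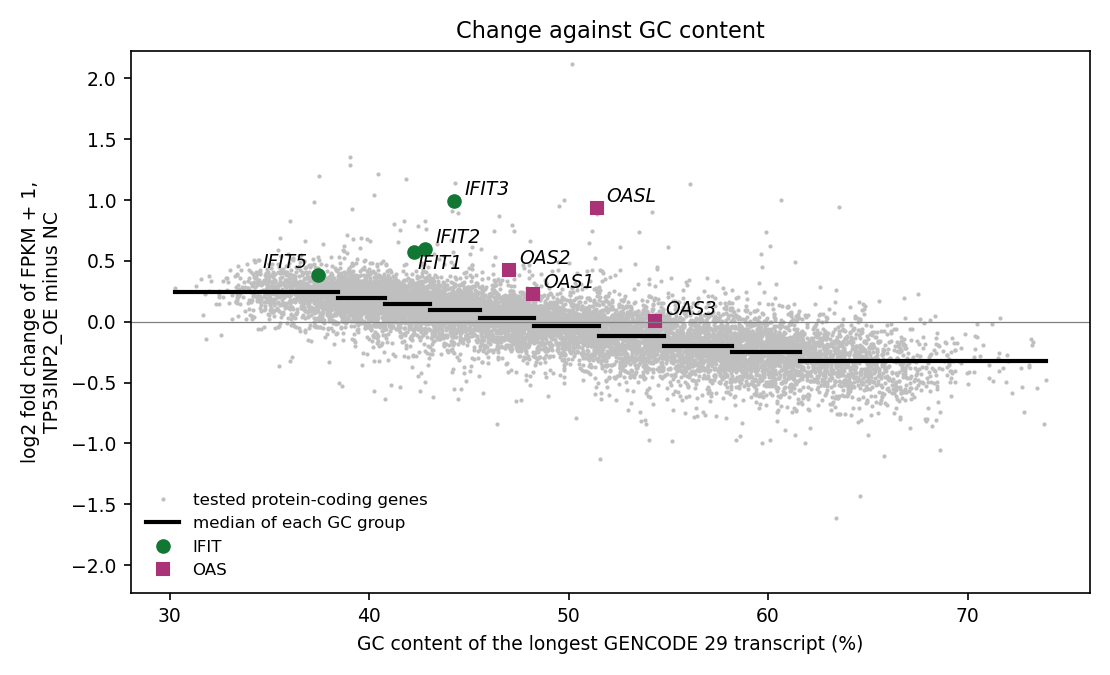
Log2 fold change of FPKM + 1 (TP53INP2_OE minus NC) against the GC content of the longest transcript in percent. Grey points are tested protein-coding genes, black lines the median of each of 10 GC groups, green circles IFIT genes and purple squares OAS genes. All 8 genes lie above the line of their group, OASL by 0.97 and OAS3 by 0.12. A median has as many genes above as below it, and the 8 were chosen on these fold changes. Nothing is therefore read from the count.

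A second limma fit was made with GC content and length fitted out, in which 3.99% of 14548 genes rose and 6.90% fell (10.9% in either direction). With that step 5 of the 8 genes rose and none fell. IFIT3 (log2 fold change 0.90), IFIT2 (0.46), IFIT1 (0.43), OAS2 (0.38) and OASL (0.99) passed. IFIT5 was at 0.17 with a standard error of 0.05 and no longer passed. OAS1 and OAS3 were at 0.21 and 0.11 and did not pass, although OAS3 passed (0.12) when the libraries were also centred on their mean.

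**Figure D4:**
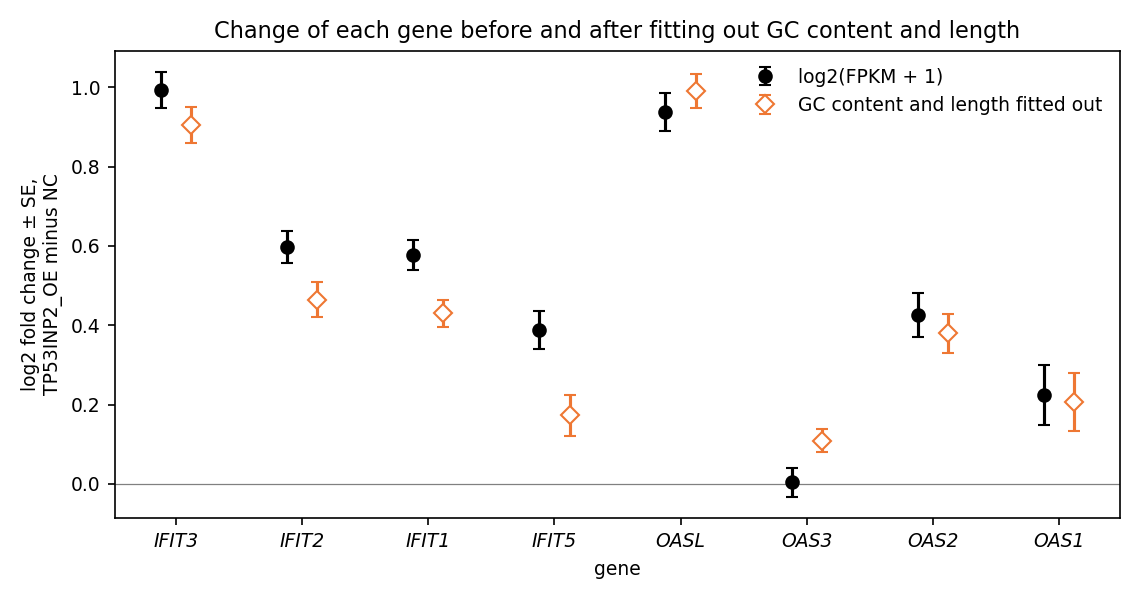
Log2 fold change of each gene (TP53INP2_OE minus NC) with its standard error, before (black circles) and after (orange diamonds) GC content and length were fitted out. IFIT5 goes from 0.39 to 0.17 and OAS3 from 0.0034 to 0.11, while OASL and IFIT3 stay at 0.90 or above.

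The pathway known to induce these genes was described with 8 lists of 85 genes in all, whose differences come from the first fit unless the second is named. The counts of each list stand beside the 16.4% of all tested genes that rose and the 18.6% that fell, or the 3.99% and 6.90% of the second fit, and nothing particular to a list is read from them. Of the interferon genes, 2 of 8 passed the filter. IFNB1, the interferon beta gene, was at 2.71, 2.02 and 1.67 FPKM in NC and at 1.77, 2.64 and 2.57 FPKM in TP53INP2_OE. IFNL1, a type III interferon, was at 1.86 ± 0.81 and 1.46 ± 0.24 FPKM. The groups overlapped for both, neither passed, and they rested on 16 to 38 reads per library.

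Among 8 tested genes of the receptor and JAK-STAT list 3 rose and 2 fell, with a median log2 fold change of 0.13. The kinase gene JAK1 rose from 15.7 ± 0.64 to 19.1 ± 0.61 FPKM (log2 fold change 0.27, limma adjusted p = 0.00590), and its partner TYK2 fell from 15.4 ± 0.43 to 12.2 ± 0.79 FPKM (-0.31, adjusted p = 0.00681). The receptor subunit gene IFNAR1 rose from 9.51 ± 0.16 to 11.2 ± 0.92 FPKM (0.22, adjusted p = 0.0312). SOCS1, a feedback inhibitor of JAK kinases, fell from 7.91 ± 0.83 to 5.74 ± 0.74 FPKM (-0.40, adjusted p = 0.0224). With GC content and length fitted out JAK1 was the 1 gene of the list that passed (0.20), and TYK2, IFNAR1 and SOCS1 were at -0.06, 0.06 and -0.07. STAT2 (7.20 ± 0.19 and 7.74 ± 0.52 FPKM) and IRF9 (0.73 ± 0.18 and 0.60 ± 0.18 FPKM) did not pass. IRF9 and the receptor subunit gene IFNAR2 (0.24 ± 0.09 and 0.27 ± 0.05 FPKM, below the filter) each overlap a longer gene on the same strand in the table, AL136295.5 and AP000295.1, so their low values are uncertain.

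Of 4 tested interferon regulatory factor genes 2 fell and none rose. IRF3, which acts on IFIT genes without interferon when activated, fell from 16.1 ± 0.25 to 10.9 ± 1.11 FPKM (log2 fold change -0.52, limma adjusted p = 0.00355) and was at -0.30 with GC content and length fitted out, where it still passed. IRF1 fell from 6.73 ± 0.26 to 5.72 ± 0.15 FPKM (-0.20, adjusted p = 0.0171) and was at -0.14 after that step, where it did not pass. These are RNA levels, and activation of the factors was not analysed here.

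Of 11 tested RNA and DNA sensing genes 3 rose and 2 fell, with a median of 0.16. DDX58, which encodes RIG-I, was at 20.3, 25.7 and 22.5 FPKM in NC and at 51.4, 55.5 and 55.7 FPKM in TP53INP2_OE, and its log2 fold change of 1.22 (standard error 0.08, limma adjusted p = 0.00166) was above that of any IFIT or OAS gene. IFIH1, which encodes the sensor MDA5, rose by 0.56 (adjusted p = 0.00276) and the kinase gene TBK1 by 0.32 (adjusted p = 0.00624), while IKBKE, a related kinase gene, fell by 0.25 (adjusted p = 0.0253). With GC content and length fitted out 3 rose and 1 fell: DDX58 (1.04), IFIH1 (0.43) and DHX58 (0.47), the gene of the related helicase LGP2, rose, and MAVS (-0.17), the adaptor of these sensors, fell. DHX58 and MAVS were named after their values were seen, and TBK1 (0.11) and IKBKE (-0.04) did not pass there.

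On the route downstream of the oligoadenylates 1 of 4 tested genes rose and none fell, with a median of 0.22. ABCE1, a ribosome recycling factor, rose from 22.0 ± 0.65 to 27.7 ± 1.66 FPKM (0.32, adjusted p = 0.00560 by limma). PDE12, a phosphodiesterase that degrades the oligoadenylates, did not pass, with levels of 6.55 ± 0.20 and 7.27 ± 0.25 FPKM. With GC content and length fitted out none of the 4 passed, ABCE1 being at 0.10.

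IFIT1 reads the methylation of RNA caps, so the genes of cap formation were listed too, and 2 of 6 rose and 1 fell, with a median of 0.07. CMTR1, the enzyme that adds the first ribose methyl group next to the cap, fell from 12.2 ± 0.23 to 10.2 ± 0.39 FPKM (log2 fold change -0.24, limma adjusted p = 0.00756). CMTR2, which methylates the following ribose, rose by 0.31 (adjusted p = 0.00974), and RNMT, the cap guanine methyltransferase, by 0.30 (adjusted p = 0.0174). None of the 6 passed with GC content and length fitted out, where the 3 were at -0.15, 0.09 and 0.12.

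Of 26 tested other interferon-stimulated genes 13 rose and 4 fell, with a median of 0.17, and 9 rose and 1 fell with GC content and length fitted out. The largest log2 fold changes were those of IFI44 (1.35), DDX60 (1.29), RSAD2 (1.17) and CMPK2 (1.00), which passed after that step too at 1.16, 1.08, 1.01 and 1.02. The genes that fell were named after their values were seen: the membrane restriction factors IFITM1 (-0.51), BST2 (-0.44) and IFITM2 (-0.36), and IFI35 (-0.39). All 4 were lower in every TP53INP2_OE library than in every NC library, which held for 25.6% of all tested genes. Since they were picked because they fell, nothing is read from that. Of these IFITM1 (-0.42) also fell with GC content and length fitted out. IFITM1 and IFITM2 overlap on the same strand in the table, so their split of reads is uncertain. MX1, an antiviral GTPase, was below the filter at 0.28 ± 0.05 and 0.25 ± 0.03 FPKM.

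**Figure D5:**
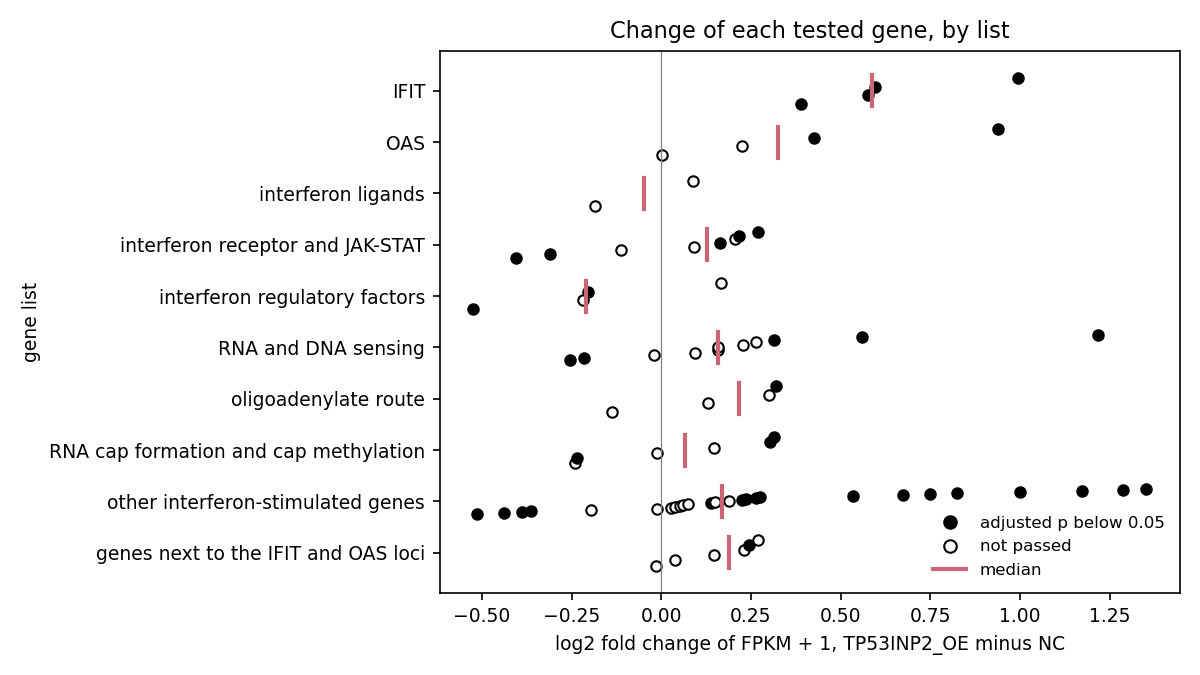
Log2 fold change of FPKM + 1 (TP53INP2_OE minus NC) of each tested gene, by family or list. Filled points passed the limma threshold of 0.05 on the adjusted p, open points did not, and red lines are medians, 0.59 for IFIT, 0.33 for OAS and 0.17 for the other interferon-stimulated genes.

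Genes next to the 2 loci and to OASL were listed as well. Of 11 such genes 6 were tested, 1 rose and none fell. The gene that rose, SPPL3, an intramembrane protease gene near OASL, went from 8.05 ± 0.11 to 9.72 ± 0.47 FPKM (log2 fold change 0.24, limma adjusted p = 0.00885) and passed with GC content and length fitted out (0.29). LIPA, between and across the IFIT genes, did not pass, as given above.

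Each gene's log2(FPKM + 1) was centred on its mean over the 6 libraries and divided by its SD. These scaled values were averaged over the 4 genes of a family. Every gene of a family thus counted equally, OAS3, whose groups overlapped, as much as OASL. The genes most like the IFIT average over the 6 libraries were VEGFC (Pearson's r = 0.999), DDX21 (0.997), HERC5 (0.997), ZBTB44 (0.997) and CSNK1G3 (0.997). They were sought among 6897 protein-coding genes of at least 5 FPKM. HERC5, the ligase that attaches ISG15 to proteins, is in the list of interferon-stimulated genes and was at 12.5 ± 0.30 and 20.6 ± 0.19 FPKM. For the OAS average the genes most alike were APOL1 (0.995), SPESP1 (0.979), AREL1 (0.975), SPIRE1 (0.975) and PPHLN1 (0.971). The 6 libraries form 2 groups, so the points share the difference between them, and 628 of the 6897 genes exceeded 0.95 for IFIT and 24 for OAS.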

How the data were processed

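The authors deposited FPKM values per gene for 6 libraries, with gene name, position, length and type, per the file headers. Bowtie 0.12.2 is listed, per the submitters' processing notes, beside builds mm8 and GRCh38. The read-to-gene counting and its strand setting are not given in the sources used here. Of the table's gene IDs, 96.2% were in GENCODE 29 (GRCh38), 99.9% of these on the same chromosome. FPKM times gene length gave whole multiples of 1 step per library for 100% of values above 0 (tolerance 0.01), taken as reads.

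Values were taken as log2(FPKM + 1), which understates the change of low genes. Genes averaging 0.5 FPKM or more were tested by limma (version 3.58.1, R version 4.3.3, empirical Bayes with trend, Benjamini-Hochberg over all tested genes, threshold 0.05). The approach was tried on simulated data in which each gene varied on its own around its mean, with no GC or length trend. That trial cannot show how the calls fare where such a trend is present. GC content is that of the longest GENCODE 29 transcript, and its trend and that of log2 length, as natural splines of 5 degrees of freedom, were subtracted per library from deviations around gene means. Groups and replicate numbers come from the sample titles. The genes and lists were chosen with earlier results of these data known.

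Named genes are the 8 genes, TP53INP2, a few fixed pathway genes (among them IFNB1, STAT2, IRF9, CMTR1 and IFIT1B), up to 4 genes per list that passed with the largest change, or the 2 highest where fewer than 2 passed, and 5 genes per family by likeness. DHX58, IFNAR2, MAVS, MX1 and the stimulated genes that fell were named after their values were seen. Certain listed genes enter the counts without being named. A planned comparison of protein sequences was not made, since no protein table was used here. Voom was run without TMM factors. Depth was 16038062 to 17607612 reads per library. Alternatives were another filter, pseudocount or scaling, protein-coding genes only, voom, a replicate block and leaving out each library.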

Additional observations from a re-analysis of the deposited data

How the results depend on the processing

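The 8 genes were selected on this contrast, so their values under other settings are a description and support nothing. Over 10 other settings and with each library left out, the log2 fold change was 0.43 to 0.63 for IFIT1, 0.46 to 0.65 for IFIT2, 0.90 to 1.09 for IFIT3, 0.38 to 0.48 for OAS2 and 0.91 to 1.01 for OASL. The number of the 8 that passed upwards was 5 to 7, and none fell. IFIT5 no longer passed with GC content and length fitted out (0.17) or with the libraries also centred, a setting chosen after seeing the data (0.19). OAS1 passed among protein-coding genes (0.22), with quantile normalization (0.24), with voom (0.28) and without TP53INP2_OE replicate 2 (0.28), and its range with each library left out was 0.18 to 0.28. OAS1 gave no value among genes of at least 5 FPKM. OAS3 passed with the centred setting (0.12), and leaving out libraries gave -0.012 to 0.025, including -0.0023 and -0.011.

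Fitting out GC content and length left 581 genes that rose and 1004 that fell, or 659 and 855 with centring. Leaving out libraries gave 1454 to 2216 that rose (1454 without NC replicate 1, 1606 without NC replicate 2) and 1811 to 2592 that fell (1811 without NC replicate 1). The receptor and JAK-STAT list then had 1 gene that rose and 0 that fell (both GC settings), 1 that fell with no filter, and 1 to 2 in either direction with libraries left out. Its median was 0.049, 0.063 with centring and 0.034 with no filter. For the regulatory factors 1 fell in both GC settings and 1 to 2 with libraries left out, with medians of -0.019, -0.0039 with centring and -0.10 with no filter. For sensing 6 rose among protein-coding genes, 5 with quantile normalization and 7 with voom, 1 fell in both GC settings and with no filter, 0 to 2 fell with libraries left out (0 without NC replicate 1), and the medians were 0.087 and 0.10 with centring. For the oligoadenylate route 0 rose in both GC settings, 2 among protein-coding genes and 3 with voom, with medians of 0.019, 0.034 with centring and 0.20 to 0.33 with libraries left out (0.33 without NC replicate 2). For cap formation 0 rose and 0 fell in both GC settings, 2 fell among protein-coding genes, 1 to 2 rose with libraries left out, and the medians were -0.037 and -0.022 with centring. For other stimulated genes 1 fell in both GC settings, with medians of 0.10, 0.12 with centring, 0.23 with TPM, 0.24 at 5 FPKM or more, 0.22 with a pseudocount of 0.1 and 0.22 with voom. For neighbouring genes 2 rose with voom, with medians of 0.27 with TPM, 0.14 at 5 FPKM or more, 0.024 with no filter, 0.28 with a pseudocount of 0.1, 0.30 with voom and 0.16 to 0.20 with libraries left out. The ligands' median became 0.13 with TPM. The cause of these shifts was not tested.

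Replicate numbers are shared by the groups, but deviations of same-numbered libraries correlated by only 0.011 to 0.017 across genes, and NC replicate 3 did not correlate best with its own number, so the numbers were not taken to pair libraries. With the replicate block 1980 genes rose and 2416 fell, OAS1 passed at 0.22, and in the receptor and JAK-STAT list 1 gene rose and 1 fell. Low read numbers limit OAS1, IRF9 and the interferon genes most.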
